A study of Mus musculus with 6 samples.

Results

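Cathepsins are proteases that work mainly in endosomes and lysosomes. The 10 described here are Ctsa, Ctsb, Ctsc, Ctsd, Ctse, Ctsh, Ctsl, Ctss, Ctsw and Ctsz, in early mouse thymocytes. Every probe set that the platform annotation assigns to one of these symbols was taken, which gave 22 of the 45101 probe sets on the array. The family was chosen by the intensity of Ctse, which is higher on the arrays labelled double knockout in the comparison described here, so the Ctse values are a description and carry no test. RNA came from double negative thymocytes, T cell precursors without CD4 and CD8, which the sample descriptions call sorted by flow cytometry, whereas their titles name the whole thymus as the source. There were 3 arrays labelled wild type and 3 labelled double knockout for Egr1 and Egr3 (the knockout-labelled arrays), each from 1 animal per the labels. Egr1 and Egr3 encode zinc finger transcription factors induced by antigen receptor signals. The labels name the RNA as amplified. They give no strain, age or form of the alleles.

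Most cathepsins are made as inactive precursors, carried to the lysosome by mannose 6-phosphate receptors and activated there by cleavage at low pH. They fall into classes by the residue that cuts the peptide bond. Ctsb, Ctsc, Ctsh, Ctsl, Ctss, Ctsw and Ctsz are cysteine proteases, Ctsd and Ctse aspartic proteases and Ctsa a serine carboxypeptidase. In the thymus the family is known for cutting the invariant chain of MHC class II molecules, with Ctsl in cortical epithelium and Ctss in dendritic and B cells, and in cytotoxic lymphocytes Ctsc activates granzymes.

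Several features of the arrays bear on the values that follow. The Egr1 probe set gave intensities of 455 to 509 in wild type and of 1221 to 1757 in the knockout-labelled group, so it was higher where a knockout is labelled. The brighter Egr3 probe set read 30.8 to 92.2 and 32.9 to 45.8. The sources used here do not say whether these probe sets lie in the deleted sequence, and every direction below is that of the arrays as labelled. The brightest of 27 bacterial control probe sets read between 19.0 and 29.9 on the 6 arrays, which serves as a bound for signal without a target. Cd4 lay under it on every array and Cd8a, at 68.5 to 197, above it. Wild type replicate 3 stood apart: 14 granulocyte markers summed to 415 on it, against 11704 and 25326 on the other wild type arrays and 18722 to 28058 on the knockout-labelled arrays. Wild type replicate 1 and all 3 knockout-labelled arrays carried both Xist and the Y-linked Eif2s3y (186 to 476). On wild type replicates 2 and 3 Eif2s3y read 13.2 and 0.62, under the bacterial controls. Its signal thus partly followed the group, and its source was not tested. Of the other Y-linked genes, Kdm5d and Uty read 144 and 63.7 on wild type replicate 1, whereas on the knockout-labelled arrays Uty (11.4 to 23.4) stayed under the bacterial controls and Kdm5d (10.3 to 29.5) was above them on 1. The summed level of 10 double negative markers was 36686 to 45404 on the wild type arrays and 22092 to 24155 on the others. In RNA from many cells, fewer cells of a type and less RNA per cell cannot be told apart.

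Promoter sequences from RefSeq (build GRCm38.p6) were held for 6 of the 10 genes, Ctsa, Ctsc, Ctsd, Ctsl, Ctss and Ctsz, with 7 start sites, and not for Ctsb, Ctse, Ctsh and Ctsw. The 250 bases before each start were searched on both strands for 3 motifs that do not overlap each other's matches there. They were GCGNGGGCG, which EGR proteins bind, TCACGTGA, an E-box bound by the lysosomal regulator TFEB, and GAGGAAGT, a core bound by the myeloid factor PU.1. Shown first are both matches to the E-box, in windows of 30 bases, because they fall in the lysosomal housekeepers Ctsa and Ctsd. Shown last is the stretch before Ctsc, the member with an entry that rose, outside any RefSeq transcript of the gene. Sequences run 5′ to 3′ along the gene's strand, and capitals mark the motif or its reverse complement.
Ctsa, chr2:164833743-164833772, plus strand: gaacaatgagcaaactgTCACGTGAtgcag
Ctsd, chr7:142387908-142387937, minus strand: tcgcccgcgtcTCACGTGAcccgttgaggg
Ctsc, chr7:88277835-88278023, plus strand: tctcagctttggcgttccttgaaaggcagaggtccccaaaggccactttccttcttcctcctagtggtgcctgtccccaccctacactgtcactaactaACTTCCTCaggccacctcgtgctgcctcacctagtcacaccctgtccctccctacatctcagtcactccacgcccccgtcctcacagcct
The E-box was found in 2 of the 7 promoters of the family and in 0.786% of 32817 mouse promoters of the same length. The PU.1 core was found in 1 of the 7, that of Ctsc on its reverse strand, and in 2.44% of all. The EGR motif had no match in the 7, and it occurs in 4.70% of all. These matches describe letters in the sequence and no binding was measured.

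Ctse, an aspartic protease of endosomes known from stomach epithelium and from immune cells, showed the pattern for which the family was chosen. Its brighter probe set read 337, 189.7 and 1196 on wild type replicates 1, 2 and 3 and 6585, 6849 and 6694 on the knockout-labelled arrays. The groups did not overlap, and the lowest knockout-labelled array was 5.50 times the highest wild type array. The mean intensity was 574 ± 544 in wild type and 6709 ± 133 in double knockout (SD, n = 3 each). On the log2 scale of intensity plus 16, the difference was 3.90 (SE 0.48, n = 3 and 3), and it was 4.61 (SE 0.23) without wild type replicate 3 and 3.71 (SE 0.55) without wild type replicate 1. The knockout-labelled arrays lay within a factor of 1.04 of each other, whereas wild type replicate 3 was 6.31 times wild type replicate 2. The other Ctse probe set (its suffix marks probes shared between sequences) read between 1.86 and 19.7 and stayed under the brightest bacterial control on all arrays, with a difference of -0.02 (SE 0.30). It did not pass the filter on low values and carries no information on the direction.

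**Figure D1:**
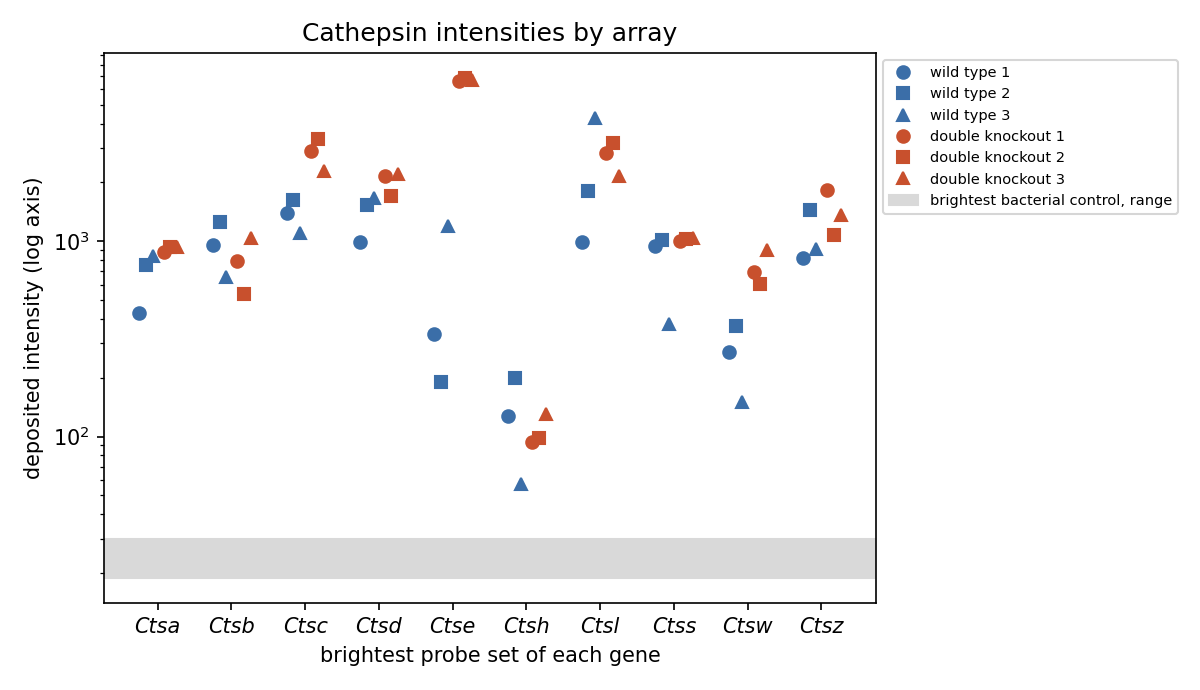
Deposited intensity (log axis) of the brightest probe set of each of the 10 cathepsins on the 3 arrays labelled wild type (blue) and the 3 labelled double knockout (orange). The grey band is the range of the brightest bacterial control, 19.0 to 29.9. Ctse read 6585 to 6849 on the knockout-labelled arrays and 189.7 to 1196 on the wild type arrays, and Ctsl was highest on wild type replicate 3.

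Across the array, 5.03% of 27022 probe sets tested passed an adjusted p of 0.05 with limma, 2.91% with higher and 2.11% with lower values in double knockout. At the level of 1 probe set for each gene the share was 7.47% of 13187 genes, 4.41% higher and 3.06% lower. Of the 22 cathepsin probe sets, 19 passed the filter on low values, and all 10 genes had at least 1 of them. Of the 9 genes other than Ctse, 2 were called higher (Ctsc and Ctsw) and 0 lower. Because the same comparison chose the family, nothing is read from that share. At an unadjusted p under 0.05, the count of lower probe sets was also 0. The median log2 difference of the 9 genes other than Ctse was 0.47, beside -0.01 over all genes tested, and it was 0.24 without wild type replicate 1. On the centred scale the groups did not overlap, with the double knockout higher, in 3 of the 9 genes other than Ctse (Ctsa, Ctsc and Ctsw). Of all genes 13.4% had this form, and nothing is read from the count, since it comes from the comparison that chose the family.

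**Figure D2:**
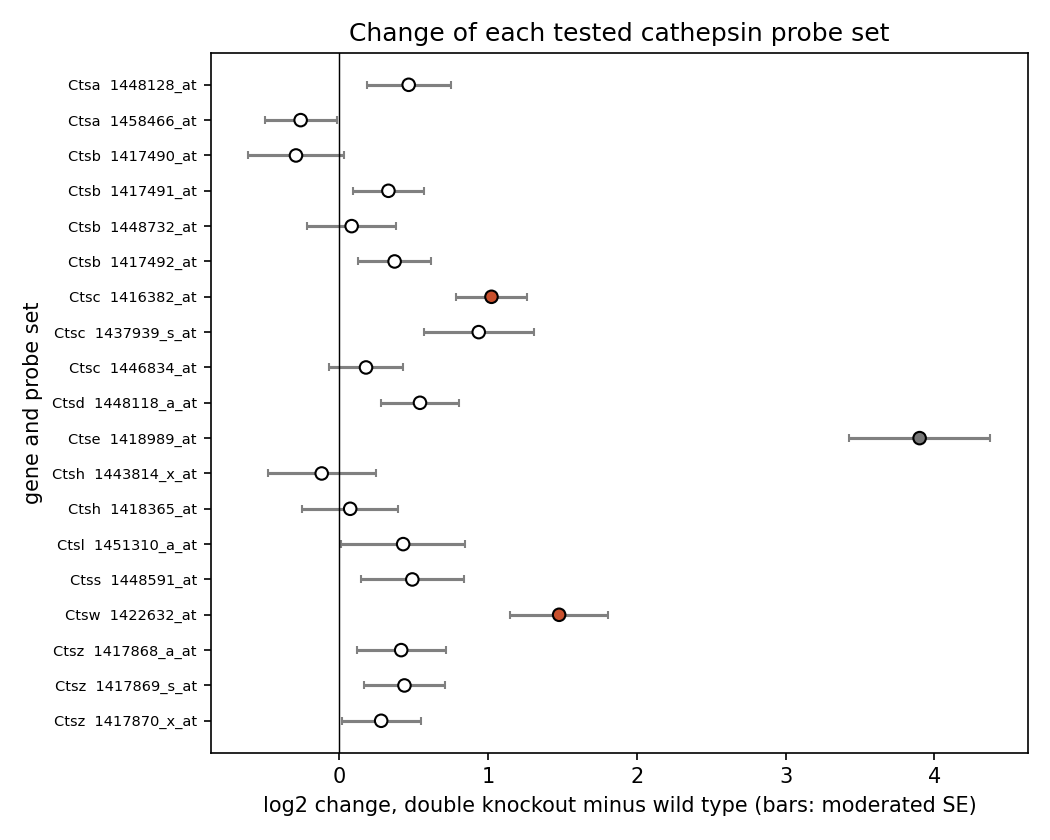
Log2 change (double knockout minus wild type, on intensity plus 16) of the 19 cathepsin probe sets that passed the filter, with moderated standard errors as bars. Orange points passed an adjusted p of 0.05 in limma, white points did not, and the grey point is Ctse at 3.90, which carries no test. The other probe sets lie between -0.29 and 1.48.

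Ctsw, a cysteine protease known from natural killer cells and cytotoxic T cells, rose. Its single probe set read 271, 367 and 149.7 in wild type, against 699.6, 607 and 898 in double knockout. All knockout-labelled arrays lay above all wild type arrays, the lowest by a factor of 1.65. The rise was 1.48 on the log2 scale (SE 0.33, limma adjusted p = 0.0249). Without wild type replicate 3 it was 1.13 (SE 0.27, adjusted p = 0.019). By the adjustment over probe sets, the call was lost without wild type replicate 1 (adjusted p = 0.0685). It was also lost without any 1 of the knockout-labelled arrays (0.0533 to 0.119). Of the 9 markers of NK and cytotoxic cells tested, 5 rose and 0 fell, against 4.41% and 3.06% of all genes. Among the 5 were Gzmb and the granule gene Nkg7 (162 to 279 in wild type, 1243 to 2423 in double knockout). The others were Klrd1 (1.82), Il2rb (2.02) and Tbx21 (0.84). Klrd1 and Tbx21 lay above the bacterial controls on all 6 arrays and Il2rb on 4. The rest of those tested, Prf1 (0.35), Gzma (-0.08), Eomes (-0.17) and Klrk1 (-0.01), did not pass. The summed level of the 10 markers on the array, most of it from the granzyme Gzma, was 11497 to 16374 in wild type and 14563 to 15368 in double knockout. The NK receptor Ncr1 stayed under the bacterial control on all arrays, and the perforin gene Prf1 read 26.8 to 54.7. The part of such cells in the Ctsw values was not tested.

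Ctsc, dipeptidyl peptidase I, which trims the proforms of granzymes and of neutrophil serine proteases, rose as well. Its brightest probe set read 1401, 1621 and 1103 in wild type, against 2901, 3332 and 2296 in double knockout. The groups did not overlap, and the mean went from 1375 ± 259.8 to 2843 ± 521 (SD, n = 3 each). The rise was 1.02 on the log2 scale (SE 0.24, limma adjusted p = 0.0320), and 0.86 without wild type replicate 3 (adjusted p = 0.0273). By the adjustment over probe sets, it missed the threshold without wild type replicate 1 (0.0865) and without any 1 of the knockout-labelled arrays (0.0531 to 0.183). The same held with no filter (0.0501) and with no intensity trend (0.0573). A dimmer Ctsc probe set, marked as reading several sequences, read 4.67, 25.5 and 45.6 in wild type and 68.9, 48.9 and 53.8 in double knockout, a difference of 0.94 (SE 0.37, adjusted p = 0.190). Its first wild type reading lies under the bacterial controls, so the offset sets part of the size (1.56 with an offset of 1 and 0.46 with 64). Leaving out wild type replicate 3 (1.28, adjusted p = 0.0332) or weighting the arrays (1.11, adjusted p = 0.0283) brought it past the threshold, and it was 0.48 without wild type replicate 1. The dimmest read near the bacterial controls (20.7 to 37.5) and gave 0.18 (SE 0.25). Of 13 granulocyte markers tested with limma, none passed in either direction (2 at an unadjusted p under 0.05). Differences were positive in 10 of the 13 (median 0.77, beside -0.01 over all genes). Without wild type replicate 3 they were positive in 5 (median -0.08). The largest was that of S100a8 (3.10, SE 1.51), whereas Cxcr2 was above the controls on 1 array. Summed levels of the granulocyte markers overlapped between the groups (415 to 25326 and 18722 to 28058). The part of granulocytes in the Ctsc values was not tested. Among the substrates of Ctsc, the granzyme Gzmb rose from 45.6 to 47.7 in wild type to between 145 and 168 in double knockout (1.45, SE 0.22, gene-level adjusted p = 0.00272). Gzma, another granzyme, had a difference of -0.08 (SE 0.19), and the neutrophil proteases Elane and Prtn3 had differences of -0.16 and 0.09, with intensities at or near the bacterial controls. Gzma, Elane and Prtn3 were named for their link to Ctsc after their values were seen.

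The other 5 cysteine cathepsins did not pass the test. Ctss, the protease of invariant chain cleavage in antigen-presenting cells, read 949.5, 1012 and 375 in wild type and 997, 1026 and 1040 in double knockout. Wild type replicate 3 alone was low, and the other 5 arrays lay close together. The difference of 0.49 (SE 0.35, adjusted p = 0.501) became 0.03 (SE 0.21) without that array and 0.77 (SE 0.37) without wild type replicate 2. Ctsl, which has the same role in cortical epithelium and is otherwise broadly expressed, read 986, 1812 and 4255 in wild type and 2823, 3199 and 2151 in double knockout. Here wild type replicate 3 was the highest of the 6 arrays and wild type replicate 1 the lowest. The difference of 0.43 (SE 0.42, adjusted p = 0.651) became 0.97 (SE 0.28, adjusted p = 0.0472) without wild type replicate 3 and turned to -0.086 (SE 0.33, adjusted p = 0.942) without wild type replicate 1, so its direction rests on single wild type arrays. The dimmer Ctsl probe set stayed under the bacterial controls on all arrays.

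Ctsb, a widespread lysosomal endopeptidase and exopeptidase, had 5 probe sets. The brightest read 954, 1248 and 658 in wild type and 791, 535 and 1035 in double knockout, with overlap and a difference of -0.29 (SE 0.32, adjusted p = 0.694), which ranged from -0.54 to -0.02 with 1 array left out. The next 3 by mean, between 40.5 and 115 on the 6 arrays, leaned the other way by 0.33 (SE 0.24), 0.08 (SE 0.30) and 0.37 (SE 0.25), and none of the 3 passed. As deposited, the probe sets with 0.33 and 0.37 did not overlap between groups, by factors of 1.06 and 1.02. After centring both did. The dimmest did not pass the filter. Ctsb lies on chromosome 14, as Egr3 does, 71 protein-coding genes away in the RefSeq order.

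Ctsz, a carboxypeptidase also called cathepsin X, was read by 3 probe sets marked as reading several sequences or transcripts. The brightest read 819.8, 1439.5 and 908 in wild type and 1822, 1073 and 1365 in double knockout. Differences were 0.41 (SE 0.30), 0.44 (SE 0.27) and 0.28 (SE 0.27), none of which passed (adjusted p from 0.427 to 0.641), and wild type replicate 1 was the lowest of the 6 arrays on all 3. Without it the differences were 0.24, 0.19 and 0.06. Ctsh, an aminopeptidase known from lung and from myeloid cells, read 94.2, 177 and 70.1 in wild type and 108, 147 and 92.6 in double knockout on 1 probe set and 127, 200.2 and 57.3 against 94.3, 98.0 and 130.1 on the other. The groups overlapped on both, with wild type replicate 3 the lowest of all arrays, and the differences were 0.07 (SE 0.32) and -0.12 (SE 0.36), with adjusted p-values of 0.936 and 0.902. Both turned sign when single arrays were left out.

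Ctsd, the main lysosomal aspartic protease and the only other member of the class of Ctse among the 10, read 988, 1524 and 1656 in wild type and 2164, 1698 and 2196 in double knockout. The groups were separate as deposited, by a factor of 1.03, and overlapped after centring. The difference was 0.54 (SE 0.26, limma adjusted p = 0.296), and 0.29 without wild type replicate 1. Ctsa, which protects the sialidase Neu1 and the galactosidase Glb1 in a lysosomal complex, read 431, 752 and 841 in wild type and 882, 930.1 and 929.9 in double knockout on its brighter probe set. The groups did not overlap, although 841 and 882 lie close, and the difference of 0.47 (SE 0.28, adjusted p = 0.418) did not pass. It was 0.16 (SE 0.23) without wild type replicate 1, the array of the lowest reading. Its dimmer probe set gave -0.26 (SE 0.24, adjusted p = 0.633). Ctsa and Ctsd are the members whose promoters held the E-box shown above.

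The spread of the family was larger among the wild type arrays than among the knockout-labelled arrays. On the brightest probe set, the SD of the log2 values was higher in wild type for 9 of the 10 genes (all but Ctsb), and for 63.4% of all 13187 genes. The median SD over the 10 was 0.59 in wild type and 0.25 in double knockout, against 0.34 and 0.25 over all genes. Wild type replicate 3 was the lowest of the 6 arrays for Ctsc, Ctsh, Ctss and Ctsw and the highest for Ctsl, and among wild type arrays it was the highest for Ctse, Ctsa and Ctsd. The 13 macrophage and monocyte markers on the array summed to 2667 on that array and to 5627 and 9334 on the other wild type arrays, beside 6456 to 7447 on the knockout-labelled arrays. Most of each sum came from the lysozymes Lyz1 (1597 on wild type replicate 3, 3990 to 6343 on the others) and Lyz2 (786, and 1095 to 2551 on the others). Members of the list did not all go this way. Csf1r (36.7 against 112 to 209), Adgre1 (30.7) and Cd68 (23.0) were lowest on wild type replicate 3. Mrc1, C1qa and Fcgr1 were highest there, at 34.2, 34.7 and 40.9. Readings of these genes on that array lie near its brightest bacterial control, 29.9, with Cd68 under it. Csf1r, Adgre1, C1qb, Lyz1 and Lyz2 lay above the bacterial controls on all 6 arrays, and C1qc and Marco under them on all 6. Dendritic cell markers summed to 2952 on wild type replicate 3, 5526 and 7677 on the others and 3273 to 4353 in double knockout, most of it from class II genes such as H2-Aa, with Ccl22 and the 4 class II pathway genes above the controls on all arrays and Cd209a under them on all. Thymic epithelial markers, which include the bright Epcam, summed to 496, 780.2 and 2075 in wild type and 1134 to 3150 in double knockout, with Cldn3 under the controls throughout and the cortical proteasome gene Psmb11 above them on 1 array. The part of these cell types in the cathepsin values was not tested.

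**Figure D3:**
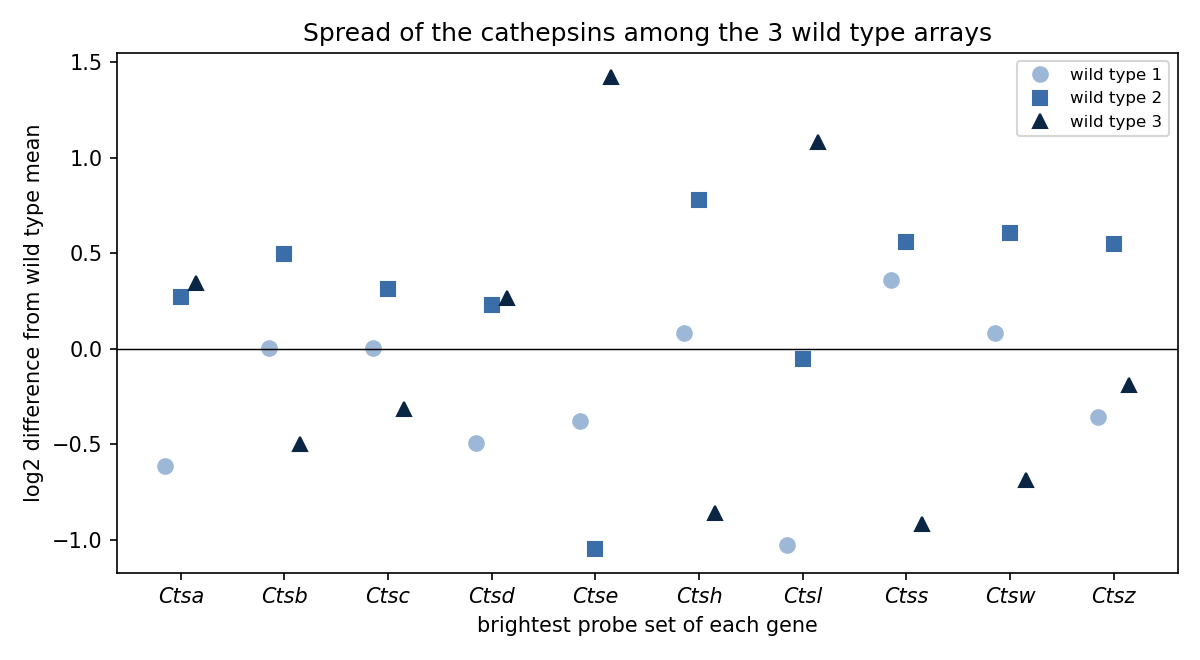
Log2 value (intensity plus 16, centred by array) of the brightest probe set of each cathepsin on the 3 wild type arrays, as the difference from their mean. Wild type replicate 3 (dark triangles) is the lowest array for Ctsb, Ctsc, Ctsh, Ctss and Ctsw and the highest for Ctsa, Ctsd, Ctse and Ctsl, and the median SD over the 10 genes is 0.59.

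The remaining cathepsin genes of the mouse were mostly not detected. Of 13 further genes on the array, Ctso passed the filter at 185.3 to 203 in wild type and 241 to 342 in double knockout, a difference of 0.54 (SE 0.24, gene-level adjusted p = 0.213). Ctsg, the granule protease of neutrophils, also passed, at 2.01 to 48.0 and 13.7 to 49.7 (0.28, SE 0.44). The other 11, among them Ctsf, Ctsk and the placental cluster, did not pass, and 10 of them stayed under the bacterial control on all arrays, Cts8 being above it on 1.

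Endogenous protease inhibitors were higher in the knockout-labelled arrays more often than lower. The list used here holds inhibitors of cysteine cathepsins and also the serpins Serpinb1a and Serpinb6b, whose action on the 10 cathepsins was not examined. Of 12 fixed in the list, 10 were on the array and 9 tested, and 7 rose and 0 fell, where 4.41% and 3.06% of all genes did. The median difference was 1.56, beside -0.01 over all genes. The count was 7 without wild type replicate 3 and 5 without wild type replicate 1 or without any 1 of the knockout-labelled arrays. The list was drawn up with a rise of 2 of its stefins already known, so it is not independent evidence. The stefins Stfa3 and Stfa2l1, cytosolic inhibitors of cysteine cathepsins also known from granulocytes, rose. Stfa3 read 27.3, 20.3 and 1.60 in wild type and 331 to 656 in double knockout, and Stfa2l1 read 17.1, 34.7 and 10.5 against 231 to 761. The wild type readings lie near or under the bacterial controls, which Stfa3 passed on 2 of the 3 wild type arrays and Stfa2l1 on 1, so the size is a bound. With each wild type reading raised to that array's brightest control where it was lower, the geometric means were at least 18.8-fold and at least 15.9-fold higher in double knockout. The limma differences of 4.02 (SE 0.37, gene-level adjusted p = 8.18e-05) and 3.79 (SE 0.42, adjusted p = 0.000323) depend on the offset: with offsets of 64 and 1 they were 2.77 and 5.34 for Stfa3 and 2.70 and 4.58 for Stfa2l1, and both passed with either. Both also passed without wild type replicate 3 (3.62, SE 0.30, and 3.57, SE 0.43). The part of granulocytes in these values was not tested. Ctla2a and Ctla2b, homologous to the propeptide of cysteine cathepsins and inhibitors of Ctsl, rose by 1.56 (SE 0.25, gene-level adjusted p = 0.00325) and 2.55 (SE 0.29, adjusted p = 0.000398). Ctla2a read 1085 to 2008 in wild type and 4291 to 4753 in double knockout. The other 3 that rose, named after their values were seen, were Cst7 (1.24), which acts on Ctsc and Ctsl, and the serpins Serpinb1a (2.00), an inhibitor of neutrophil serine proteases, and Serpinb6b (1.16). Against these stand the abundant cystatins Cstb (-0.10, SE 0.22) and Cst3 (0.12, SE 0.33), also named after their values were seen, which did not pass. Inhibitors of aspartic proteases such as Ctse were not in the list.

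**Figure D4:**
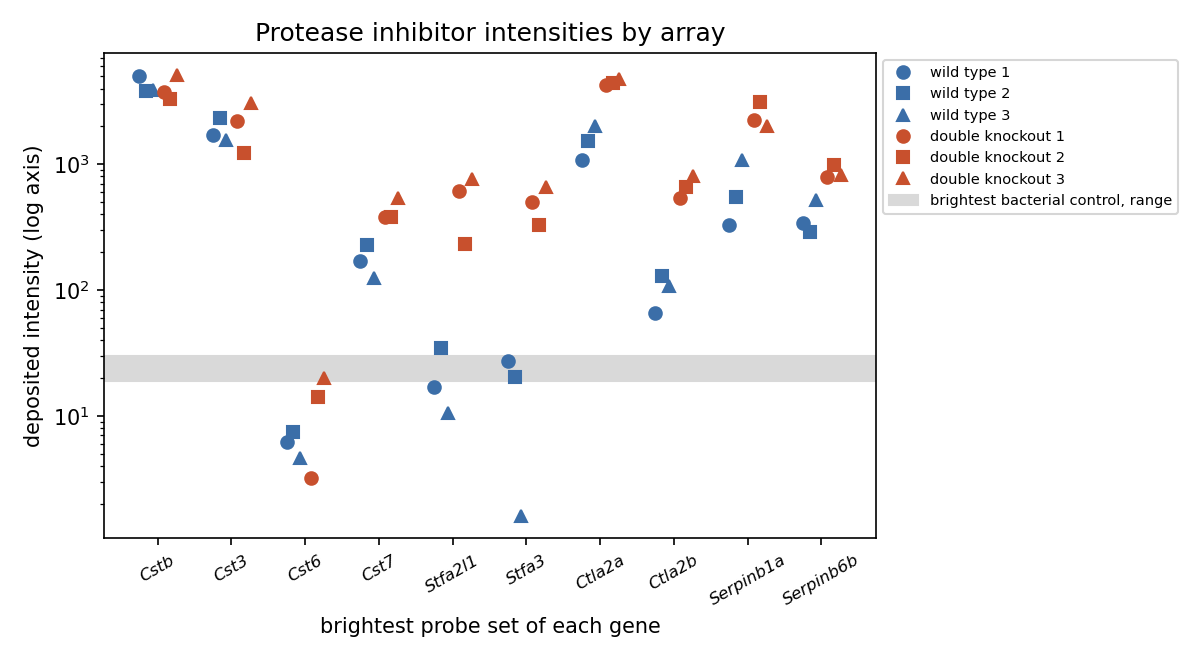
Deposited intensity (log axis) of the brightest probe set of the 10 inhibitor genes on the array, for the 3 arrays labelled wild type (blue) and the 3 labelled double knockout (orange). The grey band is the range of the brightest bacterial control, 19.0 to 29.9. The groups are separate for Cst7, Stfa2l1, Stfa3, Ctla2a, Ctla2b, Serpinb1a and Serpinb6b and overlap for Cstb, Cst3 and Cst6.

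Genes that sort and activate cathepsins did not pass, in either direction, in any of 11 tested with limma (median -0.01). Of the 11, 5 (45.45%) had an unadjusted p under 0.05, 3 higher and 2 lower, against 20.9% of all genes. Those of smallest p were Gnptg, a subunit of the enzyme that makes the mannose 6-phosphate tag (0.95, SE 0.27, gene-level adjusted p = 0.0562), Psap, the precursor of the saposins (1.11, SE 0.33, adjusted p = 0.0644), the mannose 6-phosphate receptor Igf2r (0.70, SE 0.27, adjusted p = 0.151) and the sorting receptor Sort1 (-0.64, SE 0.25, adjusted p = 0.157). Gnptg passed without wild type replicate 3 (1.21, adjusted p = 0.00743), with array weights (0.00616) and in the fit over the mean of each gene's probe sets (0.0428). Psap passed without wild type replicate 2 (1.51, adjusted p = 0.0154), with no centring (0.0481), with quantile normalization (0.0437) and with array weights (0.0262). Over the mean of its probe sets Psap gave 0.56 (adjusted p = 0.334), since its dimmer probe set differed by 0.02. Of 13 partners and substrates 1, Gzmb, rose and 0 fell, where 4.41% and 3.06% of all genes did, so the count is near the background. The class II chaperone H2-DMa had a difference of 0.80 (SE 0.27, adjusted p = 0.109), the Ctsa partner Glb1 of 0.50 (SE 0.25, adjusted p = 0.294) and the class II chain H2-Aa of -0.54 (SE 0.35, adjusted p = 0.428). Without wild type replicate 3, the brightest H2-Aa probe set fell by 0.98 (adjusted p = 0.0169). On all 6 arrays its dimmer probe sets gave -0.25, -0.07 and -0.38, and the mean of its probe sets gave -0.31 (adjusted p = 0.662).

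The genes whose pattern over the 6 arrays was nearest to that of Ctse, by the root mean square difference of centred log2 values, were Sertad4, Epb41l4a, Mapk13, Ramp3 and Cables1. They read between 165 and 873 in double knockout and between 1.54 and 43.2 in wild type, where Sertad4 and Mapk13 lay under the bacterial controls on all 3 arrays, Cables1 was above them on 1 and Epb41l4a and Ramp3 on 2. Which genes came nearest depended on the offset: of these 5, 1 was among the nearest 5 with an offset of 1 and 2 with an offset of 64. With low wild type readings raised to the control, they were at least 8.24-fold, 21.1-fold, 28.5-fold, 8.08-fold and 31.4-fold higher in double knockout, in the order named. The Ctse values that anchor the search are those for which the family was chosen. No cathepsin was among them. Of the 10 protein-coding genes that lie nearest to Ctse in the RefSeq order, 5 on each side, 7 were tested and 1 passed, against 7.47% of all genes: Ikbke, a kinase of the NF-kappaB and interferon pathways (0.93, SE 0.25, gene-level adjusted p = 0.0426). The gene next to Ctse on one side, Rab7b, had a difference of -0.93 (SE 0.30, adjusted p = 0.0865).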

How the data were processed

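The authors deposited 1 table of linear intensities, 1 value for each probe set and array, scaled so that all 6 arrays share a trimmed mean of 150 (96% of values kept). The sources used here name no scanner software or probe summary. Control probe sets (64) were left out. Symbols came from the platform annotation (34945 probe sets with 1 symbol), updated through RefSeq gene IDs. An offset of 16 was added, log2 taken and each array centred on its median, since medians differed by 0.126. The filter on low values removed probe sets with a mean below the 40th percentile, an intensity of 13.2. Groups were compared with limma 3.58.1 in R 4.3.3 (intensity trend), with Benjamini-Hochberg adjustment over 27022 probe sets. At gene level the probe set of highest mean stood for a gene and p-values were adjusted over 13187 genes. The number of arrays limits the precision. The fit was tested on simulated data with 200 of 27022 probe sets changed. It recovered 0% of them at a log2 change of 1 and 72% at 2. The pass mark of this check was lowered after its result was seen. The real fit called 1358 probe sets, and recovery after adjustment depends on how many change. These percentages therefore do not give the recovery in the real data. With 3 arrays in each group, a small difference that did not pass is not shown to be absent. The members and gene lists were chosen with earlier results of these data known. Named are all members, in each list of related genes the 4 with the smallest p, the 5 genes nearest to Ctse in pattern, and markers. Alternatives were other scalings, offsets, filters and variance models, leaving out each array, the replicate number as a block, and the mean of a gene's probe sets.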

Additional observations from a re-analysis of the deposited data

How the results depend on the processing

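Of the counts, that of probe sets called across the array (1358) was 3417 with array weights, 573 with the replicate block and 376 to 2744 with 1 array left out. The count of cathepsin probe sets called higher (3, Ctse included) was 1 with the replicate block and 1 to 5 with 1 array left out. The count of cathepsin genes (3, Ctse included) was 1 and 1 to 4, and 2 over the mean of each gene's probe sets. With no filter or no intensity trend it stayed at 3. Without Ctse, which carries no test, the gene count (2 of 9) was 0 with the replicate block and 0 to 3 with 1 array left out. The count of cathepsin probe sets called lower was 0 throughout. The causes were not tested. Some differences that did not pass turned sign. With 1 array left out, Ctsl ranged from -0.086 to 0.97, the Ctsb probe set with 0.08 from -0.10 to 0.35, the Ctsh probe sets from -0.19 to 0.43 and from -0.55 to 0.27, and Ctsg from -0.25 to 0.65. With array weights Ctsh was at -0.20 on the first of these probe sets and Ctsg at -0.23. Ctsw and Ctsc both missed the threshold with the replicate block (adjusted p = 0.0838 and 0.0842). Same-numbered arrays did not deviate together (correlations of -0.05, -0.13 and -0.29), and arrays of unlike number gave -0.19 to 0.25. With 3 arrays in each group, these values cannot tell whether the numbers pair the samples. The Ctse difference ranged from 3.38 to 4.61 over all alternatives.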
